A study of Homo sapiens with 2 samples.

Results

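The ABC transporters are a family of membrane proteins that use ATP to move lipids, drugs, peptides, metals and conjugated metabolites. Their levels, apart from those of ABCB1 and ABCB4, were compared between parental EBC1 cells and the resistant subline EBC1-R. The members were taken by name, as genes whose symbol is ABC followed by a letter from A to G and a number, leaving out pseudogenes. A current gene table (RefSeq, assembly GRCh38.p14) holds 43 such genes, and 40 of them were measured among the 18377 genes of the value table. The others were not analysed here.

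EBC1 is an established line from a human squamous carcinoma of the lung in which the gene of the receptor tyrosine kinase MET is amplified. EBC1-R was derived from it by growth in rising amounts of the MET inhibitor PHA-665752, and was then kept in medium with 3 µM inhibitor. The parental line is described only as wild type, and no inhibitor is named for its medium. Each line was measured on 1 whole-transcript array, so the design holds 1 sample a group, no difference has an error or a test, and selection cannot be told apart from the presence of the drug. The sources used here do not say whether EBC1-R is a clone. According to its design text, the series set out to find how EBC1-R cells resist the inhibitor, and ABC transporters are examined here as the family of the efflux pump ABCB1, which the series title names.

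Members with a letter in common share ancestry and often a task. Subfamily A moves lipids, subfamily C holds the multidrug resistance proteins that export conjugated anions and drugs, and subfamily D serves peroxisomes and lysosomes. Subfamily B includes drug and bile salt pumps together with transporters of mitochondria and lysosomes. Subfamily G moves sterols and, through ABCG2, drugs, while the proteins of subfamilies E and F carry ATP-binding domains without a membrane part and act on ribosomes. Further family genes carry other names (TAP1, TAP2 and CFTR) and are described beside their subfamilies.

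Levels are log2 intensities as deposited, and each difference is the EBC1-R level minus the EBC1 level, so that a difference of 1 is 2-fold. The deposited columns had medians of 6.73 and 6.71. A level filter was set at a mean of 7.28 over both arrays, the median of all genes, and 18 of the 40 members lay above it. The filter is no detection call, and whether a level under it exceeds background is not known. As a yardstick without cultures in it, the difference varied between probe sets of the same gene with a pooled SD of 0.16 over 376 genes above the filter. Probe sets with nearly the same values, such as the 3 of ABCF1, were kept in this SD, which makes it smaller. Of 9 epithelial markers 5 lay above the filter. EPCAM (11.33 and 11.25) and CDH1 (11.96 and 12.06) differed by little, whereas the keratins of simple epithelia were lower in EBC1-R, KRT19 by 1.86-fold, KRT8 by 1.77-fold and KRT18 by 1.72-fold. The part of the keratins in the differences of the ABC members was not tested. The squamous markers KRT5, SOX2, DSG3 and PKP1 lay under it, between 5.13 and 6.53. All 4 leukocyte and all 4 endothelial markers lay under it, with differences between -0.15 and 0.09. In RNA from whole cultures, fewer cells of a type and less RNA per cell cannot be told apart.

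Among the 40 members, which leave out ABCB1, ABCB4 and CFTR, a group of 6 was at least 1.5-fold higher in EBC1-R. The remaining members differed by at most 0.36 in either direction. Outside the 40, ABCB4 was 2.05-fold and CFTR 3.80-fold higher. None of the 40 members was 2-fold different in either direction, beside 1.26% of all genes on the higher side and 0.887% on the lower side. With 40 members, such shares are too small for a count of 0 to set the family apart. At least 1.5-fold higher were 6 of 40 members, or 15% against 4.41% of all genes. They were ABCB6, ABCC4, ABCC5, ABCA5, ABCC3 and ABCA2. No member was 1.5-fold lower, against 3.16% of all genes, a share at which 0 of 40 does not set the family apart either. The largest decrease was that of ABCG8, with a difference of -0.36. In all, 17 members were higher (43.3% of all genes were), 22 were lower (55.5% of all genes) and ABCG1 had the same deposited value on both arrays. After a trend with intensity was removed the split was 22 higher and 18 lower, and all genes moved as well, to 49.1% higher and 50.9% lower. The median difference of the 40 members was -0.01, beside -0.03 over all genes. For scale, ABCB1 stood at 5.37 in EBC1 and at 12.65 in EBC1-R, a difference of 7.27, and ABCB4 at 5.56 and 6.60, a difference of 1.04. MET, the target of the inhibitor, stood at 13.17 and 13.21.

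**Figure D1:**
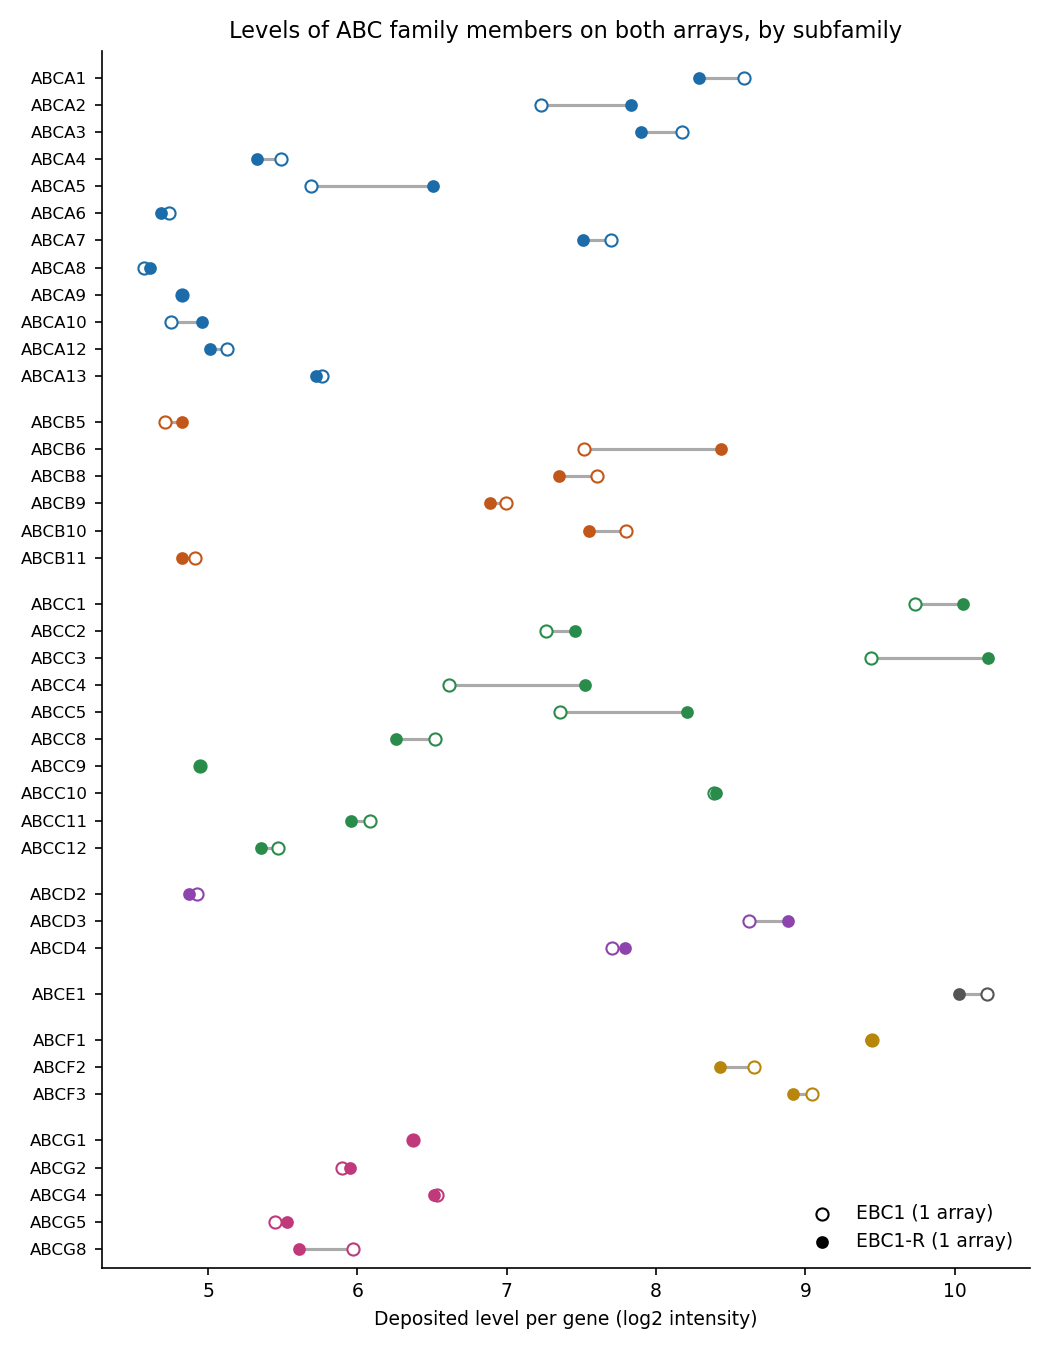
Deposited levels (log2 intensity, horizontal axis) of the 40 measured members, grouped by subfamily, in EBC1 (open circles) and EBC1-R (filled circles), 1 array each. Long connecting lines with the filled circle on the right are seen for ABCA2, ABCA5, ABCB6, ABCC3, ABCC4 and ABCC5; most other pairs of circles lie close together.

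The step between the group of 6 and the remaining members was wide. ABCA2, the lowest of the 6, differed by 0.60, just above the 1.5-fold line at 0.58, and ABCC1, the next member down, by 0.32. The central 95% of the differences of genes over the level filter ran from -0.83 to 0.87. Of the 6, ABCB6 at 0.92 and ABCC4 at 0.91 exceeded the upper of these bounds and the other 4 lay inside it. By their means ABCC4 and ABCA5 lay under the filter, so the bounds come from genes at higher levels than theirs. Differences of that size were not rare on these arrays, where 6.25% of genes above the filter were at least 1.5-fold higher. With a pseudocount of 16 on the linear scale ABCA2 differed by 0.55 and no longer reached 1.5-fold, which left 5 members.

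**Figure D2:**
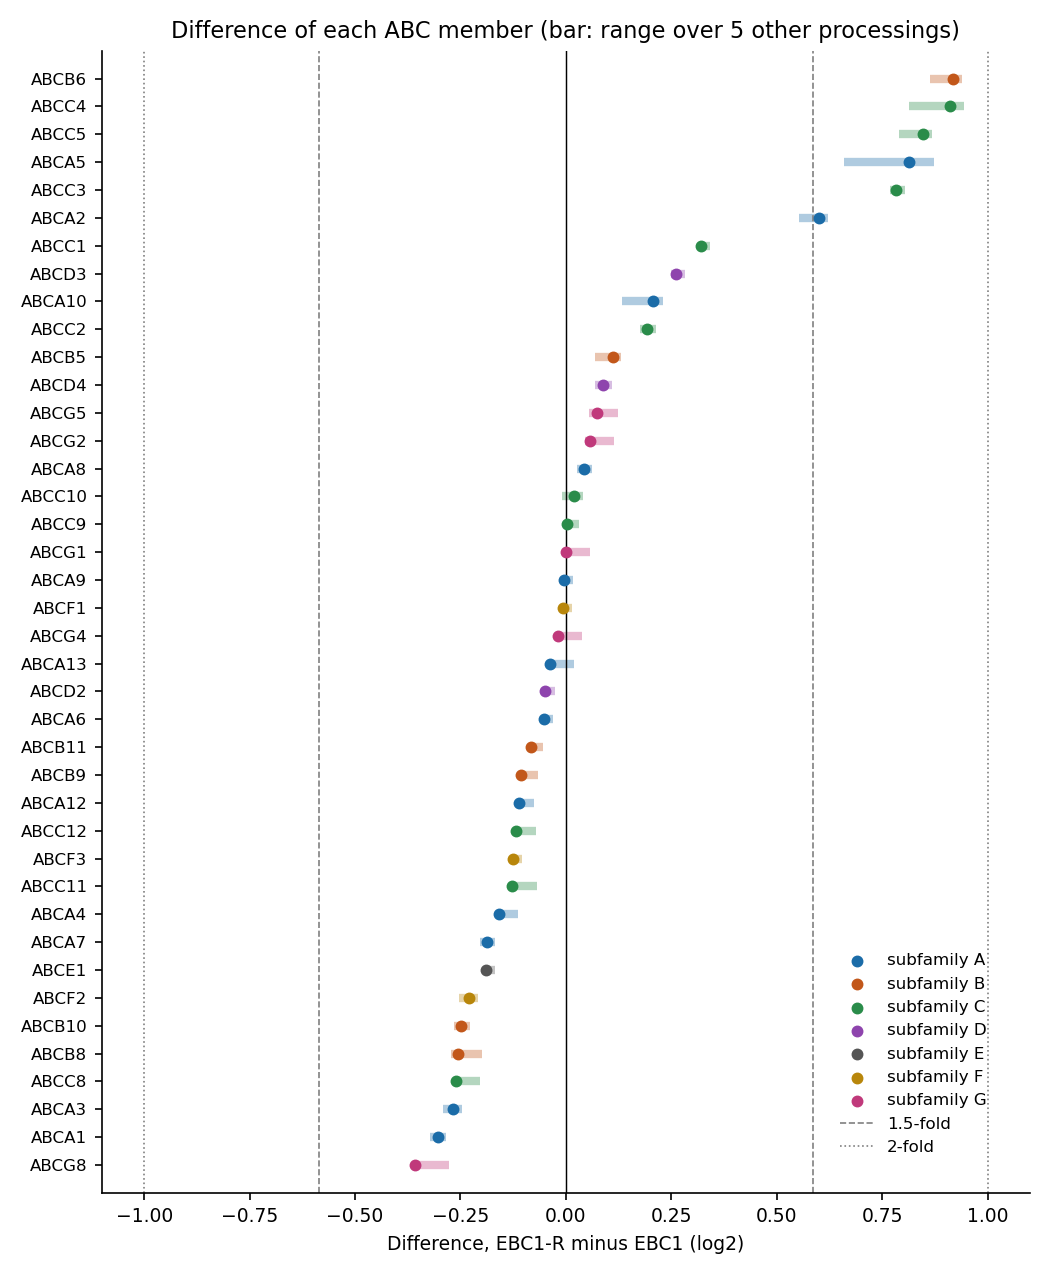
Difference between EBC1-R and EBC1 (log2, horizontal axis) for each member in order of size, with a point for the value as deposited and a bar for the range over 5 other ways of processing. The uppermost 6 points, from ABCA2 at 0.60 to ABCB6 at 0.92, are separated from ABCC1 at 0.32 and the rest, and the lowest point is ABCG8 at -0.36.

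**Figure D3:**
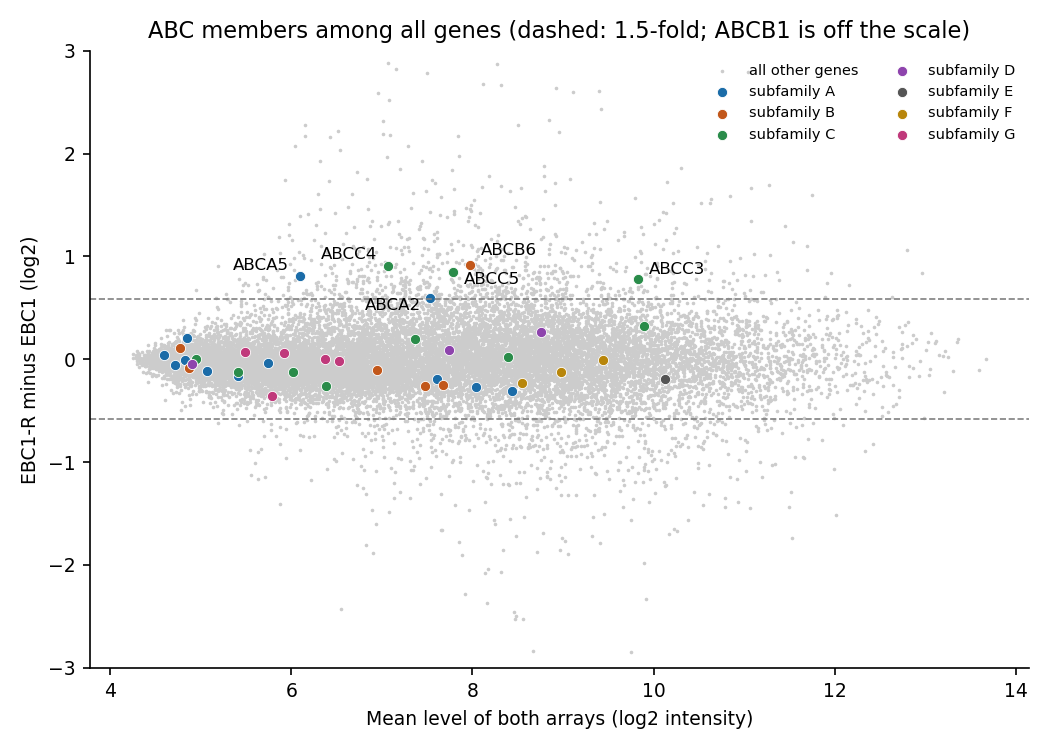
Difference between EBC1-R and EBC1 (log2, vertical axis) against the mean level of both arrays (log2 intensity, horizontal axis) for all genes (grey) and the members (coloured by subfamily). The 6 named members lie above the upper 1.5-fold line at different mean levels, and no member lies below the lower line; 6 genes with differences beyond 3, ABCB1 among them, are outside the plotted range.

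The promoters of the 3 members with the largest differences, ABCB6, ABCC4 and ABCC5, are shown because these genes were higher together in EBC1-R. Each sequence is the 250 bases before the gene's start in RefSeq (build GRCh38.p14), written 5′ to 3′ on the gene's own strand. Capitals mark 3 short motifs on either strand, the core of the antioxidant response element (TGACNNNGC), the GC box (GGGCGG) and the CCAAT box (CCAAT), and no matches overlapped in these windows. The ABCC4 window also overlaps the annotated span of the gene LOC102724149.
ABCB6, chr2:219218959-219219208 (- strand): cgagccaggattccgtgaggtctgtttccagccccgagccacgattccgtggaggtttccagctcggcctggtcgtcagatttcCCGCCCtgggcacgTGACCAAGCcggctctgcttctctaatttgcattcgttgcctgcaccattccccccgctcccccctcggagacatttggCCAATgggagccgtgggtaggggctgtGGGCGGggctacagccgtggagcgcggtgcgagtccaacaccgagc
ABCC4, chr13:95301452-95301701 (- strand): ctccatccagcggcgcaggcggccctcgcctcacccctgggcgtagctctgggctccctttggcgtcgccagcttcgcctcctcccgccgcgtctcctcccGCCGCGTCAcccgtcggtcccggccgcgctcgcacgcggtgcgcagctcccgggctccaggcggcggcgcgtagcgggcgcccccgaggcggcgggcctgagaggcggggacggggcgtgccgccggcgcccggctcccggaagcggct
ABCC5, chr3:184017885-184018134 (- strand): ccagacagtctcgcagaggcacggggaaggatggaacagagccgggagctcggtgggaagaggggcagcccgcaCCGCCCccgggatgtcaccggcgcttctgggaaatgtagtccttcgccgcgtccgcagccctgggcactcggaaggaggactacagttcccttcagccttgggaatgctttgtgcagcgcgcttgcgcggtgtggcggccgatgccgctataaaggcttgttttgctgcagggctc

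None of the marked motifs was common to all 3 windows. ABCB6 holds 1 antioxidant core, 2 GC boxes and 1 CCAAT box, ABCC4 holds 1 antioxidant core, and ABCC5 holds 1 GC box. The table of promoter sequences matched 33 of the 40 members and 5 of the 6 higher ones, without ABCC3. The antioxidant core was present in 3 of these 5 (ABCA2, ABCB6 and ABCC4). The GC box was in 3 of them as well (ABCA5, ABCB6 and ABCC5), and so was the xenobiotic response core (ABCA2, ABCA5 and ABCC4), while the CCAAT and TATA boxes were each in 1. The antioxidant core was in 6 of the 33 members and in 11.0% of 27305 promoters of the same length. The other 3 members with it were ABCA3, ABCD4 and ABCF1, which differed by -0.27, 0.09 and -0.01. The part of the motif in these differences was not tested. A GC box was present in 18 of the 33 members and 42.3% of all promoters, and a CCAAT box in 6 of the 33 members and 33.0% of all promoters. Searched but not marked were the xenobiotic response core (GCGTG), found in 12 of the 33 members and 31.9% of all promoters, and the TATA box (TATAAA), found in 5 of the 33 and 11.1%. Both strands were searched. The motifs were chosen with the expression values known, and a match of letters is a description and not a binding site.

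Subfamily C held 3 of the 6 members at least 1.5-fold higher. These 3 were 30% of its 10 measured genes, against 4.41% of all genes. Of the 10, 7 were higher in EBC1-R (6 under quantile normalization), 70% against 43.3% of all genes. The subfamily median was 0.11, beside -0.03 over all genes. ABCC4 (MRP4), which exports cyclic nucleotides, prostaglandins and nucleotide analogues, went from 6.61 in EBC1 to 7.52 in EBC1-R, a 1.88-fold higher level. Its mean over both arrays lay under the level filter. ABCC5 (MRP5), another exporter of cyclic nucleotides and nucleotide analogues, was at 7.36 in EBC1 and at 8.21 in EBC1-R, 1.80-fold higher. ABCC3 (MRP3), which carries glucuronide conjugates and bile acids across the basolateral membrane, was at 9.44 and 10.22, 1.72-fold higher. ABCC3 was above the filter on both arrays, and so was ABCC5, while ABCC4 reached it in EBC1-R alone.

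The other multidrug resistance proteins differed less. ABCC1 (MRP1), which exports glutathione conjugates and leukotriene C4, was at 9.74 in EBC1 and at 10.06 in EBC1-R, 1.25-fold higher. ABCC2 (MRP2), the apical exporter of conjugates in liver and kidney, was at 7.27 and 7.46, a difference of 0.19. ABCC10 (MRP7), which can carry taxanes, was at 8.38 and 8.40, a difference of 0.02 that changed sign under quantile normalization. ABCC11 and ABCC12, which lie next to each other on chromosome 16, were both under the filter and differed by -0.13 and -0.12. Over the 8 measured multidrug resistance proteins the median difference was 0.26, beside -0.03 over all genes. Of the 8, 6 were higher (75%, against 43.3% of all genes) and 2 lower, or 5 higher under quantile normalization. This set within subfamily C was drawn up after the values were seen.

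The remaining subfamily C genes are regulators or channels rather than drug pumps. ABCC8 and ABCC9, the sulphonylurea receptors that form potassium channels with KCNJ11 and KCNJ8, were both under the filter. ABCC8 was at 6.52 in EBC1 and at 6.26 in EBC1-R, and ABCC9 at 4.94 and 4.95. Their channel partners differed by 0.01 (KCNJ11) and -0.22 (KCNJ8), also under the filter. CFTR, the chloride channel that belongs to subfamily C by descent, was at 5.35 and 7.28, 3.80-fold higher, with its mean under the filter. Its difference exceeded that of every member of the 40.

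Glutathione and its conjugates are substrates of several ABCC proteins, and the genes that make them were listed beside the family. Of 18 measured genes 10 were higher (55.6%, against 43.3% of all genes) and 8 lower, and 3 were at least 1.5-fold higher (16.7%, against 4.41%). Of the 18, 11 lay above the level filter, where 49.1% of genes were higher and 6.25% at least 1.5-fold higher. GCLM, a subunit of the enzyme that starts glutathione synthesis, was at 8.33 in EBC1 and at 9.52 in EBC1-R, 2.29-fold higher. GCLC, its catalytic partner, was 1.67-fold higher, from 9.97 to 10.71. The transferase GSTM4 was 1.78-fold higher and the microsomal transferase MGST2 1.36-fold. The cystine transporter SLC7A11 was at 12.29 and 12.04. The median of the list was 0.14, beside -0.03 over all genes.

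In subfamily B a single measured member was far from 0. ABCB6, a porphyrin transporter found in mitochondria and in endosomal and lysosomal membranes, was at 7.52 in EBC1 and at 8.44 in EBC1-R. At 1.89-fold it had the largest difference of the 40 members. The mitochondrial members went the other way by small amounts. ABCB10, which supports haem synthesis at the inner membrane, was at 7.80 and 7.55, a difference of -0.25. ABCB8, a further mitochondrial transporter, was at 7.60 and 7.35, and its 3 probe sets differed by -0.20, -0.31 and -0.26. ABCB9, a lysosomal peptide transporter, differed by -0.11, the bile salt export pump ABCB11 by -0.08 and ABCB5 by 0.11, all under the filter. TAP1 and TAP2, which load peptides for antigen presentation and belong to subfamily B, were 1.25-fold and 1.16-fold higher.

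Of 18 measured genes of mitochondrial haem and iron-sulphur synthesis 15 were higher (14 under quantile normalization), 83.3% against 43.3% of all genes, and the median was 0.09 beside -0.03. FECH alone was at least 1.5-fold higher, or 5.56% of the list against 4.41% of all genes. It inserts iron into protoporphyrin and was at 7.83 in EBC1 and at 8.72 in EBC1-R, 1.85-fold higher. The scaffold gene ISCU was 1.41-fold higher and ISCA2 1.27-fold, whereas HCCS, which attaches haem to cytochromes c, was 1.41-fold lower. ABCB6 and FECH thus differed by similar amounts, 0.92 and 0.89, while ABCB10 was lower.

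Subfamily A had 2 of 12 members past 1.5-fold (16.7%, against 4.41% of all genes). Of the 12, 4 were higher (33.3%, against 43.3% of all genes) and 8 lower, or 6 higher after removal of the trend. The median was -0.04, beside -0.03 over all genes. ABCA5, which handles lipids in late endosomes and lysosomes, was at 5.69 in EBC1 and at 6.51 in EBC1-R. It was 1.76-fold higher and under the filter on both arrays. ABCA2, an endosomal and lysosomal transporter linked to sterol and sphingolipid handling, was at 7.23 and 7.83, 1.52-fold higher. Of the 2, ABCA2 alone lay above the filter by its mean.

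The better known lipid exporters of subfamily A were lower. ABCA1, which passes cholesterol and phospholipid to apolipoprotein A-I, was at 8.59 in EBC1 and at 8.29 in EBC1-R, 1.23-fold lower. ABCA3, which loads surfactant lipids into the lamellar bodies of alveolar type II cells, was at 8.17 and 7.90, 1.20-fold lower. ABCA7, a phospholipid transporter, was at 7.70 and 7.51, with a difference of -0.19. Of 5 alveolar type II markers, LAMP3 alone differed clearly, from 7.78 to 8.85 and 2.10-fold higher, while SFTPB, SFTPC, SFTPD and NAPSA lay under the filter. The other members of subfamily A were under the filter and between -0.16 (ABCA4, of the retina) and 0.21 (ABCA10). ABCA12, the lipid transporter of keratinocyte lamellar granules, was at 5.13 and 5.02.

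Subfamily G, which shares sterol export with subfamily A, had no member above the filter and none past 1.5-fold. ABCG2 (BCRP), the drug and urate exporter, was at 5.90 in EBC1 and at 5.95 in EBC1-R, a difference of 0.06. ABCG1, which exports cholesterol to lipoproteins, was listed at 6.37 on both arrays, 1 of 548 probe sets with identical deposited values. ABCG4 differed by -0.02, and under centring ABCG1 and ABCG4 both turned positive. ABCG5 and ABCG8, whose products form a sterol exporter together, were at 5.45 and 5.53, and at 5.97 and 5.61. They differed in sign, by 0.07 and -0.36, although they are neighbours on chromosome 2.

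Sterol sensing and lipoprotein genes were set beside ABCA1 and ABCG1. Of 15 measured, 5 were higher (33.3%, against 43.3% of all genes) and 9 lower, with a median of -0.06. SREBF1, a transcription factor of lipid synthesis, was at 9.26 in EBC1 and at 8.39 in EBC1-R, 1.82-fold lower, and SREBF2, its sterol synthesis counterpart, was 1.35-fold lower. NR1H3, the sterol receptor LXR alpha that induces ABCA1, was at 6.82 on both arrays. NPC1, which moves cholesterol out of lysosomes, differed by -0.28, and the apolipoprotein APOE by -0.23. The largest increase of the list, 0.31, was that of SCARB1, which was under the filter by its mean.

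Subfamily D differed by small amounts. ABCD3, the peroxisomal membrane protein that imports branched fatty acids and bile acid precursors, was at 8.62 in EBC1 and at 8.88 in EBC1-R, 1.20-fold higher. ABCD4, which works in the release of cobalamin from lysosomes, was at 7.70 and 7.79, and ABCD2, a peroxisomal importer of very long fatty acids, at 4.92 and 4.87. Of 17 measured peroxisomal and cobalamin partners 13 were higher, 76.5% against 43.3% of all genes, with a median of 0.19 beside -0.03. Of the 17, 14 lay above the level filter, where the share of genes that were higher was 49.1%, and 9 differed by less than 0.2. LMBRD1, the lysosomal partner of ABCD4, was at 8.16 and 9.03, 1.83-fold higher, and MMACHC, the next step in cobalamin handling, 1.32-fold. HSD17B4, an enzyme of peroxisomal oxidation, was 1.54-fold higher. CROT, which makes carnitine esters in peroxisomes, was at 6.78 and 9.45, 6.38-fold higher, and it lies beside ABCB4 and ABCB1 on chromosome 7.

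The ribosome-bound members were lower by small amounts. ABCE1, which splits ribosomes after termination, was at 10.22 in EBC1 and at 10.03 in EBC1-R, a difference of -0.19. ABCF2 was at 8.66 and 8.43, and ABCF3 at 9.04 and 8.92, with differences of -0.23 and -0.12. ABCF1, which takes part in initiation of translation, was at 9.45 and 9.44, with a difference of -0.01 that turned positive under centring. Its 3 probe sets carry the same transcripts and nearly the same values, and are not separate support. Of 15 listed partners in ribosome recycling and quality control, 5 were higher (33.3%, against 43.3% of all genes), none passed 1.5-fold and the median was -0.03. The collision sensor ZNF598 was 1.41-fold lower and the termination factor GSPT1 1.28-fold.

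Genes of sensors that can control ABC genes differed in both directions, 5 higher and 6 lower of 11 measured (45.5% higher, against 43.3% of all genes). PPARG, a lipid-activated receptor, was at 10.31 in EBC1 and at 9.36 in EBC1-R, 1.93-fold lower. ARNT, the partner of the dioxin receptor and of hypoxia factors, was at 8.52 and 9.22, 1.62-fold higher. PPARA, under the filter, differed by 0.53, MAFF by -0.47, AHR by 0.31, and NFE2L2, which encodes NRF2, by 0.17. These are transcript levels, and the activity of the proteins was not measured.

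**Figure D4:**
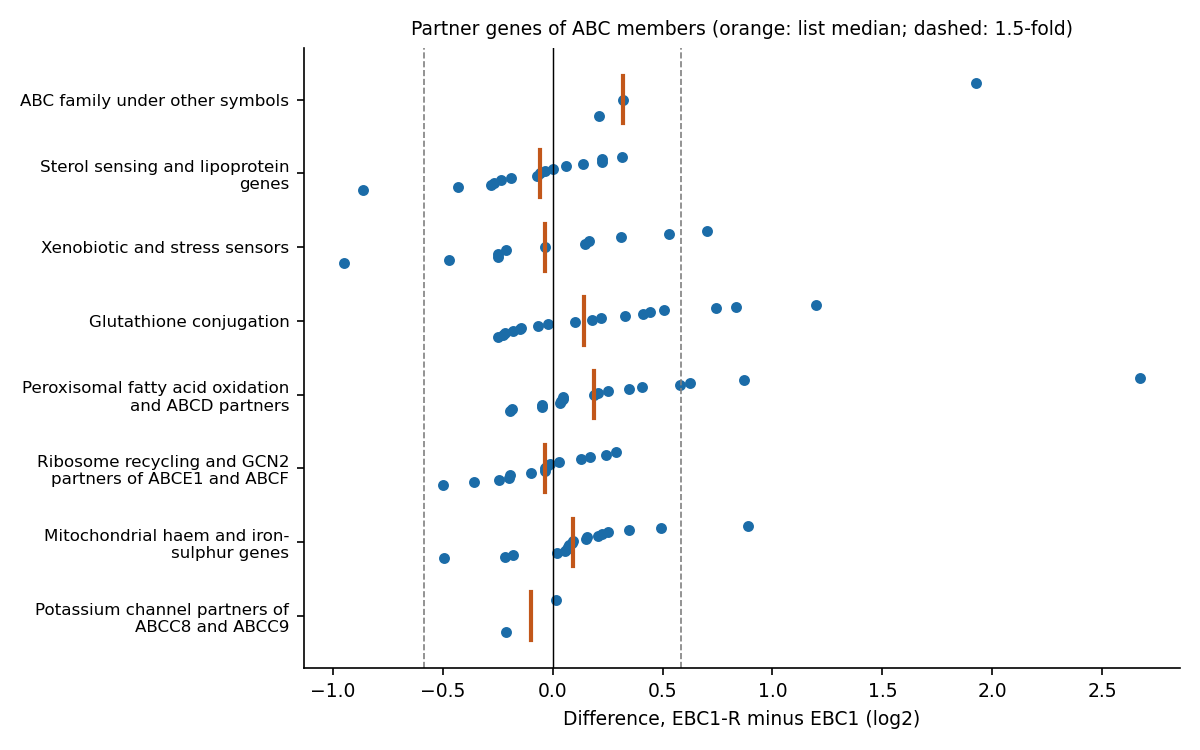
Differences between EBC1-R and EBC1 (log2, horizontal axis) of the genes listed beside the ABC members, a point for each gene and an orange line at each list's median. The list medians lie between -0.10 and 0.32, while single genes such as CROT at 2.67, CFTR at 1.93 and GCLM at 1.20 lie far to the right.

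Position was examined because ABCB1, ABCB4 and CROT, which lie side by side, were all at least 2-fold higher. The 6 members past 1.5-fold lie on 5 chromosomes, with ABCA5 and ABCC3 both on chromosome 17, and none lies on chromosome 7. The 4 members on chromosome 7 besides ABCB1 and ABCB4 are ABCB5 (0.11), ABCA13 (-0.04), ABCB8 (-0.26) and ABCF2 (-0.23), so no member elsewhere on that chromosome was 1.5-fold different. The 3 nearest measured genes on each side of each of the 6 members gave 36 neighbours, with a median difference of 0.00. Of these, 2 were at least 1.5-fold higher, a share near the 4.41% of all genes. They were DNAJC3, the third measured gene beyond ABCC4, at 2.36-fold, and ANKZF1, the second measured gene beyond ABCB6, at 1.53-fold. Between ABCB6 and ANKZF1 lies ATG9A, which was 1.34-fold higher. The nearest measured genes beside ABCC4, SOX21 and CLDN10, differed by -0.13 and -0.14, and those beside ABCC5, PARL and HTR3D, by 0.01 and 0.27. Among these, PARL alone lay above the level filter. Many of the 36 neighbours lay under it, including every one beside ABCA5, and differences at low levels may be understated.

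The subfamily A cluster on chromosome 17 allows members to be compared side by side. In order along the chromosome, ABCA8 differed by 0.04, ABCA9 by -0.0041, ABCA6 by -0.05, ABCA10 by 0.21 and ABCA5 by 0.81. All 5 were under the filter, and ABCA5, at the end of the row, was the one past 1.5-fold. On its far side MAP2K6 differed by -0.23.

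**Figure D5:**
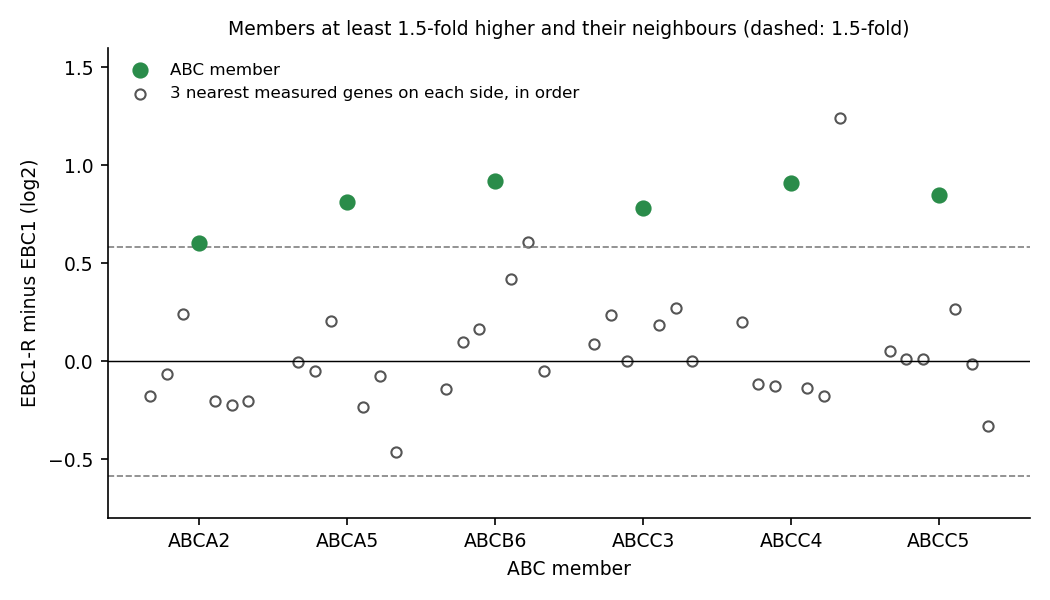
Differences between EBC1-R and EBC1 (log2, vertical axis) of the 6 members at least 1.5-fold higher (filled circles) and of the 3 nearest measured genes on each side in chromosomal order (open circles). Most neighbours lie near 0, below the 1.5-fold line, and many of them have levels under the level filter. The exceptions past the line are DNAJC3 near ABCC4 at 1.24 and ANKZF1 near ABCB6 at 0.61.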

How the data were processed

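Total RNA of EBC1 and EBC1-R cells was measured on 1 array each. Per the labels' protocols, 100 ng RNA was made into biotin-labelled cDNA with a whole-transcript kit. The array named in the extraction protocol does not match the probe identifiers, which belong to a whole-transcript gene array. The authors deposited 1 value per probe set, taken as log2 intensity from its range (4.21 to 14.2). Not given in the sources used here are the log base, background correction, summarization and normalization. When each column was sorted, values of equal rank lay within 0.17 of each other, and a shift common to most genes would not show.

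Of 28869 probe sets, 19310 carried 1 gene symbol, 1752 several and 7807 none. Probe sets with 1 symbol were averaged per gene (18377 genes). Symbols and gene types were looked up by gene identifier in RefSeq (19279 probe sets matched). Of the members, 38 had 1 probe set, and ABCB8 and ABCF1 had 3. Pseudogenes were removed by RefSeq gene type. The number of arrays limits the precision, and no p-value was computed.

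The rule for named genes covers all members, with both levels for those at least 1.5-fold different, above the level filter, or at either end of a subfamily. It adds ABCB1, ABCB4, MET, TAP1, TAP2 and CFTR. From each partner list it adds the genes above the level filter with the largest differences, and any at least 2-fold different. Others were chosen after their values were seen. The members and lists were chosen with earlier results of these data known. The alternatives were quantile normalization, median centring, removal of a lowess trend (span 0.2), a pseudocount of 16, the brightest probe set of a gene, and 2 level filters. Counting was tested on simulated data. Python 3.11.15, pandas 2.3.3 and statsmodels 0.14.6 were used.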

Additional observations from a re-analysis of the deposited data

How the results depend on the processing

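The 6 members at least 1.5-fold higher were also counted as 6 under quantile normalization, median centring, removal of the lowess trend and the brightest probe set, as 5 with the pseudocount, and as 4 and 5 under the level filters on the mean and on the higher level. A member can pass either filter through its level in EBC1-R (ABCA2 did under both, and ABCC4 and ABCC5 under the second), so these 2 counts say nothing about stability. No member was 1.5-fold lower or 2-fold different under any of these 7 alternatives. With the filter on the mean, which leaves 18 members, 9 were higher and 9 lower, and with the filter on the higher level 10 were higher and 9 lower, counts that are smaller because fewer genes remain. The median over the members ranged from -0.01 to 0.02. Of the 40 members, 34 kept their sign under all 5 alternatives that give a value to every member. ABCA9, ABCA13, ABCC10, ABCF1 and ABCG4, none of which differed by more than 0.04, did not, and ABCG1 had a difference of 0. No probe set with several symbols named a member, so adding such probe sets gave no other value. With 1 array a group no replicate could be left out. No paired analysis was possible because each group has 1 array and no test was made. No detection calls were used, so differences among members with low levels may be understated.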

Other observations

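Pseudogenes of the family, left out of the comparisons above, gave values on both arrays. ABCA11P was at 6.14 in EBC1 and at 6.20 in EBC1-R, ABCA15P at 6.48 and 6.62, and ABCC13, a pseudogene in spite of its symbol, at 4.80 on both. All 3 lay under the level filter. Of 6 fibroblast markers 1, COL1A1, lay above the filter, at 7.64 and 7.61. The part of these markers in the differences of the ABC members was not tested.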
